A study of Mus musculus with 2 samples.

Results

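The members described here are the transcripts of molecular chaperones and of the unfolded protein response, measured in mouse macrophages with and without Pac1 after exposure to LPS. They were chosen by a rule on gene names, with earlier results of these data known. A probe set, the group of short array probes that reports 1 transcript, was taken when its annotation gave exactly 1 gene symbol. That symbol had to begin with Hsp (but not Hspg), Dnaj, Cct followed by a number, Pdia or Fkbp, or had to be one of 10 further names: Xbp1, Ddit3, Herpud1, Calr, Canx, Hyou1, Sel1l, Edem1, Hsf1 and P4hb. This gave 101 probe sets for 77 genes, out of 12654 probe sets on the array, 10298 of them with 1 symbol. No probe set was annotated to Hsf1 alone.

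Pac1, the product of the Dusp2 gene, is a nuclear phosphatase that removes phosphate from MAP kinases. One array held RNA of Pac1-/- cells and the other RNA of Pac1+/+ cells of age-matched littermates. All mice received 2 ml of 3% thioglycollate, an irritant that draws macrophages into the peritoneum, 4 days before lavage, and the adherent cells of both genotypes received 100 ng/ml LPS for 6 hours. The strain, sex and age of the mice, the deleted part of the gene and any pooling of mice are not stated in the sources. With 1 array per genotype no difference had a replicate check, so every value below is a description of 2 RNA samples, without a p-value. In bulk RNA, fewer cells of a type and less RNA per cell cannot be told apart, and untreated cells were not analysed here, so the values are levels after LPS and not inductions.

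Chaperones bind proteins that are not yet folded. Hsp70 proteins hold stretches of unfolded chain and are driven by J-domain partners, Hsp90 proteins finish the folding of kinases and receptors, and the CCT ring encloses actin and tubulin. Proteins bound for the cell surface or secretion fold in the endoplasmic reticulum (ER) with their own Hsp70 (Hspa5, also called BiP), Hsp90 (Hsp90b1), lectins and disulfide isomerases. When unfolded protein builds up there, the unfolded protein response raises these genes through transcription factors such as Xbp1, and a separate arm induces Ddit3, which encodes CHOP. Macrophages that secrete cytokines after LPS place load on this compartment.

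Dusp2, the disrupted gene, gave a signal of 76.8 in Pac1-/- cells and 333.0 in Pac1+/+ cells, 23.1% of the latter. Signals are in the arbitrary units of MAS5, the algorithm that combines the probes of a probe set. Macrophage markers were bright, with all 8 listed genes on the array above the floor and a median log2 ratio of knockout over wild type of 0.24. B cell markers summed to 358.1 in the knockout against 429.9, with all 4 above the floor and a median log2 ratio of −0.45. They went apart, Ighm (−0.90), Ms4a1 (−0.74) and Cd79b (−0.15) lower and Cd79a higher (100.2 against 20.7). Plasma cells, which carry much ER chaperone RNA, had 2 of 5 markers above the floor, Sdc1 and Prdm1, with sums of 467.0 and 448.2. The other listed markers on the array, Jchain (29.5 against 12.2), Irf4 (6.7 against 6.8) and Tnfrsf17 (33.0 against 20.4), were below it on both arrays. T cell markers were below it too (0 of 4 above). Mast cell markers (3 of 5 above the floor) summed to 464.7 against 330.5 and neutrophil markers (2 of 6) to 172.3 against 148.9. Mesothelial and stromal markers (4 of 6) summed to 720.7 against 871.7. Eosinophil markers (1 of 2) summed to 102.3 against 16.8, nearly all from Prg2 (100.1 against 16.0), while Epx (2.2 and 0.8) was below the floor. Whether these differences play a part in the ratios below was not tested.

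On the knockout array the member genes of ER-associated degradation (Sel1l, Edem1 and Herpud1), the CHOP gene Ddit3 and the isomerase gene Pdia6 had higher signals than on the wild-type array. The ER J-domain genes Dnajb9 and Dnajc3 and the mitochondrial Hspd1 and Dnajc11 had lower ones. The mitochondrial Fkbp8 and Hspe1 were higher. In the cytosol, Hspa4l and Hspa1b were 1.5-fold or more lower. Dnajb13 and Fkbp4 were 1.5-fold or more higher in 1 probe set and lower in the other. Genes of ER-associated degradation outside the naming rule had ratios on both sides of 0. The main chaperones Hspa5, Hspa8 and Hsp90aa1 lay within 1.25-fold. Of the 7 CCT ring probe sets measured above the floor on both arrays, 0 were 1.5-fold apart, against 10.2% of all such probe sets. Cct7 and Cct8, above the floor on the knockout array only, have bounds alone. Tcp1, a CCT subunit outside the naming rule, had a log2 ratio of 0.54. As many of these differences are on dim probe sets, they are set below against the whole array.

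The floor, 36.4 units, is the median signal over both arrays together. Lower signals were raised to it before a ratio was taken, and a fold with 1 signal below it is a lower bound, written "at least". Of the 101 members, 80 (61 genes) were above the floor on at least 1 array, 67 on both and 13 on 1 only, and 21 were on neither. Of these 80, 42 had a log2 ratio of knockout over wild type above 0 and 38 below 0, and the median was 0.03, against 0.02 for all 5894 eligible probe sets. A ratio of 1.5-fold or more higher in the knockout occurred for 7 members, where 6.53% of all eligible probe sets did so, and 1.5-fold or more lower for 5, where 5.87% did so. That made 12 of 80 members (15.0%) against 12.4% of all probe sets, a share near the background. At this floor a single member, Dnajc11, was 2-fold apart, against 2.31% of all probe sets, and with the floor at the 25th percentile 10 of 95 were, against 12.2%. Of the 67 members above the floor on both arrays, 10 were 1.5-fold apart, against 10.2% of all such probe sets. The arrays were compared at equal trimmed means. Under median scaling, in which their medians are made equal and the median ratio of all probe sets moves by −0.11, 6 members were 1.5-fold higher and 8 lower, and the background became 4.36% higher and 9.14% lower.

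In the background, dimmer probe sets were more often 1.5-fold apart. The share was 16.9% where the brighter signal lay between the floor and 100, 13.3% between 100 and 300, and 4.74% above 300. The members had 6 of 28, 5 of 26 and 1 of 26 in these ranges (21.4%, 19.2% and 3.85%). The single bright member was Sel1l, and the other 11 lay in the dimmer ranges, where such differences are more common on these arrays.

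**Figure D1:**
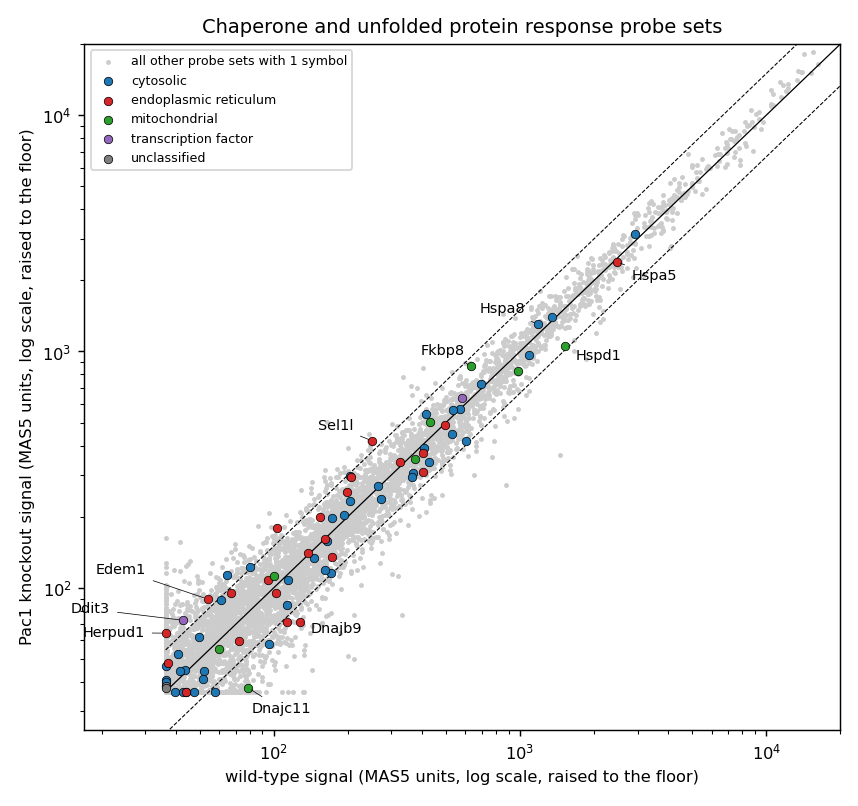
Knockout signal (vertical) against wild-type signal (horizontal) for 80 member probe sets, coloured by the compartment of the protein, and all other named probe sets in grey; both axes are logarithmic, in MAS5 units, with lower signals raised to the floor of 36.4. The solid line marks equal signals and the dashed lines 1.5-fold; Sel1l is the only member with a signal above 300 beyond a dashed line, while Hspa5 and Hspa8 lie near the solid line.

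Among the transcription factors, Xbp1 had a knockout signal of 635.2 against 582.1 (log2 ratio 0.13; the wild-type value comes second throughout). The spliced, active form of this transcript was not told apart from the unspliced one here. Ddit3 was at 72.9 against 42.8 (0.77, 1.70-fold), dim on both arrays but above the floor. Both were therefore higher on the knockout array, Xbp1 by little, and under median scaling Xbp1 was at 0.01 and Ddit3 at 0.65.

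ER-associated degradation returns misfolded proteins to the cytosol for the proteasome. Its member genes, Sel1l, Edem1 and Herpud1, had the higher signal on the knockout array in all 4 of their eligible probe sets. Herpud1 was above the floor on that array only, so once eligible its ratio could only lie above 0. Of all 5894 eligible probe sets, 3075 were above 0. Of such genes outside the naming rule, Vcp (−0.27) and Derl1 (−0.12) were lower, and Os9 (0.20) and Ufd1 (0.26) higher. Sel1l, the adaptor of the Hrd1 ubiquitin ligase, was at 418.5 against 250.9 (0.74, 1.67-fold) in one probe set and at 95.3 against 66.9 (0.51) in the other. Edem1, a lectin-like protein that hands over mannose-trimmed glycoproteins, was at 89.6 against 53.9 (0.73, 1.66-fold). Herpud1, a membrane protein of the same ligase complex, was at 64.3 against 28.3, at least 1.77-fold higher. Its wild-type signal lay below the floor. The Sel1l and Edem1 probe sets stayed above 0 under median scaling (from 0.39 to 0.62) and after quantile normalization (from 0.48 to 0.75). Herpud1, whose side of 0 was fixed by the floor, was at 0.76 and 0.80. Apart from Sel1l at 418.5, these values rest on signals under 100, the range in which 16.9% of all probe sets were 1.5-fold apart.

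Of the ER chaperones that act earlier, on the folding itself, Hspa5 was near equality, while Hsp90b1 and 1 of 3 Canx probe sets were higher on the knockout array. Hspa5, the ER Hsp70 and the usual readout of the unfolded protein response, was at 2390.3 against 2480.0 (−0.05). Hsp90b1, the ER Hsp90, was at 48.3 against 37.1 (0.38), with the wild-type signal just above the floor. Its probe set has a suffix that marks possible cross-hybridisation. Canx, the membrane-bound lectin that holds glycoproteins during folding, was at 294.3 against 205.2 (0.52) in one probe set, but at 95.2 against 102.2 (−0.10) and 160.4 against 161.4 (−0.01) in a pair that share a source sequence. The distance between these Canx ratios, 0.62, exceeds most member ratios. Calr, the soluble partner of Canx, had 0.7 and 18.0, and Hyou1, a large ER Hsp70 relative, had 1.4 and 1.0. Both are below the floor and carry no ratio.

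Protein disulfide isomerases form and reshuffle the disulfide bonds of secreted proteins. Pdia6 was higher on the knockout array in all 3 probe sets, at 107.4 against 94.6 (0.18), 253.3 against 198.3 (0.35) and 178.4 against 103.3 (0.79, 1.73-fold). The last 2 share a source sequence, and the very last has a suffix that marks possible cross-hybridisation. Pdia4 was at 199.3 against 154.4 (0.37), and Pdia3, the isomerase that works with the lectins, at 372.7 against 403.4 (−0.11). This family thus had 4 of 5 eligible probe sets above 0, with a median of 0.35, or 0.15 under median scaling, where 4 of 6 were above 0. Pdia5 (32.0 and 36.0) and P4hb (26.2 and 18.5) were below the floor on both arrays.

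The J-domain partners of Hspa5 had ratios from −0.82 to 0.07. Dnajb9, also called ERdj4, was at 71.9 against 127.3 (−0.82, 1.77-fold lower), and a second probe set lay under the floor at 12.6 and 14.5. Dnajc3, which encodes p58IPK, an ER cochaperone, was lower in all 3 eligible probe sets. Its signals were 71.6 against 112.9 (−0.66), 309.6 against 404.4 (−0.39) and 59.8 against 72.3 (−0.27), and a further one at 28.3 and 35.3 was below the floor. All but the first of these Dnajc3 probe sets have a suffix of possible cross-hybridisation. Dnajb11, the J-domain protein that delivers clients to Hspa5, was at 342.3 against 326.6 (0.07), and Dnajc1 at 140.0 against 137.4 (0.03), with a second probe set below the floor. Of the 6 eligible ER J-domain probe sets, 4 were below 0, and their median was −0.33. As 3 of the 6 are of Dnajc3, this median leans on that gene. Of the 6, 2 were 1.5-fold lower, against 5.87% of all probe sets. Their brighter signals lay between 100 and 300, where 13.3% of all probe sets were 1.5-fold apart. Under median scaling, which moves the median ratio of all probe sets by −0.11, 7 ER J-domain probe sets were eligible and all 7 were below 0. Of all 81 members eligible there, 51 were below 0. Dnajb11 (−0.05) and Dnajc1 (−0.09) were below 0 only with that scaling.

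FKBP proteins are prolyl isomerases. Of those in the ER, Fkbp2 was at 489.3 against 495.3 (−0.02) and Fkbp9 at 134.4 against 172.6 (−0.36). Fkbp11 was at 7.3 against 44.1, at least 1.21-fold lower, a bound set by its dim wild-type signal. Fkbp7 (31.8 and 28.6) and Dnajc10 (16.2 and 12.4) were below the floor on both arrays.

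**Figure D2:**
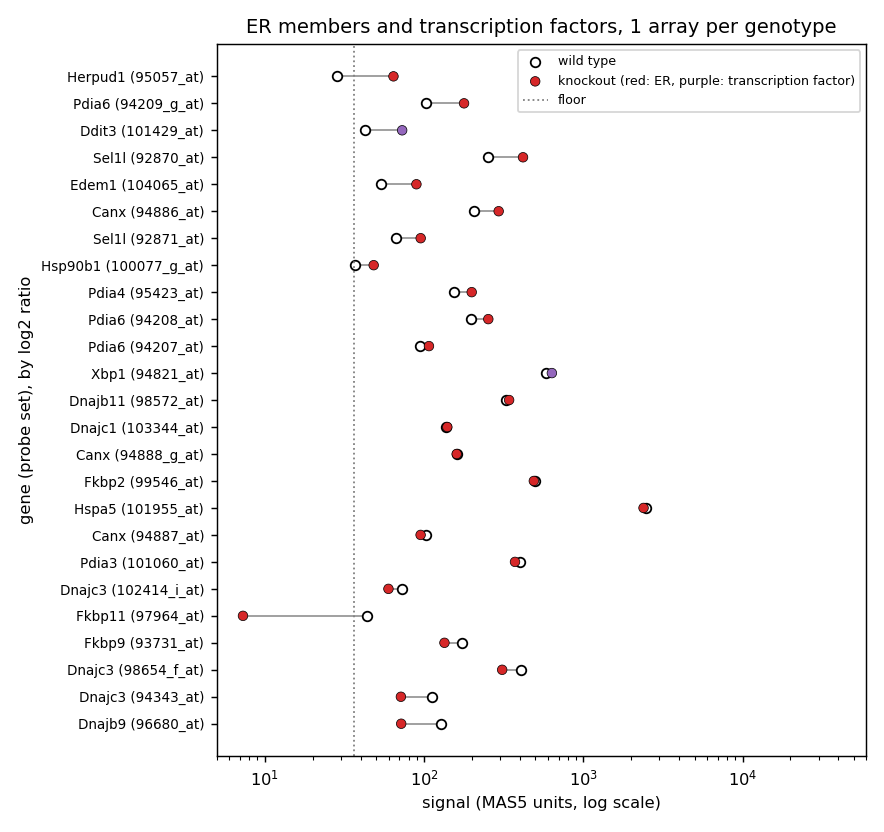
Signals of the 23 ER members and 2 transcription factors above the floor on at least 1 array, 1 row per probe set ordered by log2 ratio (horizontal axis in MAS5 units, logarithmic; open circles wild type, filled circles knockout, dotted line the floor of 36.4). Herpud1, Ddit3, Sel1l and Edem1 lie at the top with higher knockout signals, Hspa5 is nearly equal at 2390.3 and 2480.0, and Dnajc3 and Dnajb9 lie at the bottom.

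ER members that differ in direction share a promoter element. The ER stress response element (ERSE) reads CCAAT, 9 bases of any kind, CCACG, and was found on either strand in 6 of 68 member genes with a promoter entry (8.82%) and in 0.137% of the 27025 genes with one. A window of 300 bases was searched, 250 before and 50 after the start (RefSeq, build GRCm38.p6). All 6 encode ER proteins, and the element was first described in promoters of this kind, so its presence is background and not a result of these arrays. A shorter form, ERSE-II, reads ATTGG, 1 base, CCACG, and was found in 2 member genes, Herpud1 and Dnajb11, against 0.0444% of all genes. The Dnajb11 match lies after the start and is not shown. The stretches are printed 5′ to 3′ on the strand of the gene, with the element in capitals. Their genes had ratios on both sides of 0, Canx by itself on both, and Calr, below the floor, had no ratio. Whether the element plays a part in these ratios was not tested. An element on the opposite strand reads as its reverse complement, CGTGG to ATTGG, and Hsp90b1 has a second, reverse match that is not printed.
Pdia6, chr12:17266471-17266529, plus strand: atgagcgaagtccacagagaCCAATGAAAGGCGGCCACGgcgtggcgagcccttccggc
Canx, chr11:50325780-50325838, minus strand: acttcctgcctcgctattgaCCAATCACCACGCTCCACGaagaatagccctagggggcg
Hsp90b1, chr10:86705618-86705676, minus strand: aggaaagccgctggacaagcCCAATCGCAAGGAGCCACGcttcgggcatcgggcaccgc
Hspa5, chr2:34772005-34772063, plus strand: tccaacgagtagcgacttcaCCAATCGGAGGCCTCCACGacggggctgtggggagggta
Dnajc3, chr14:118937807-118937865, plus strand: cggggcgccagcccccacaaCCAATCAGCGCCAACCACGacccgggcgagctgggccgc
Calr, chr8:84847055-84847113, minus strand: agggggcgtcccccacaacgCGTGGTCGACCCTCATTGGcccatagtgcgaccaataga
Herpud1 (ERSE-II), chr8:94386357-94386407, plus strand: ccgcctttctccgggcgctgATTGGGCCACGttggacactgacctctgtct

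The element began 65 bases before the start of Hspa5, 98 before Pdia6, 105 before Dnajc3, 145 before Canx and 162 before Calr. The printed match of Hsp90b1 began 212 bases before its start. Of the 11 eligible probe sets of genes with an ERSE, 5 were above 0 and 6 below, with a median of −0.01, 1 of them 1.5-fold higher (Pdia6) and 1 lower (Dnajc3). With the ERSE-II genes the count was 7 above and 6 below of 13. Genes with the element thus lay on both sides of 0. Sel1l, Edem1 and Dnajb9 held no match in the window searched, which says only that these letters are not there.

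In the cytosol, the abundant heat shock proteins were close to equal. Hsp90aa1, the inducible Hsp90, was at 1403.2 against 1347.8 (0.06), and Hspa8, the constitutive Hsp70, at 1304.3 against 1181.0 (0.14). The stress-inducible pair went apart. Hspa1a was at 62.0 against 49.7 (0.32), while Hspa1b was at 35.4 against 58.0, at least 1.59-fold lower, its knockout signal just under the floor. These 2 genes are near-identical copies whose signals the array may not separate, and both are dim. Hspa1l, a relative in the same gene cluster, was at 41.2 against 51.5 (−0.32). Hspa2 (2.4 and 11.3) and Hspa14 (25.4 and 21.1) were below the floor.

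The Hsp110 proteins exchange nucleotide on Hsp70. Hspa4 gave ratios between −0.13 and 0.07 in the 3 probe sets with both signals above the floor, the brightest at 202.6 against 193.4. The remaining probe set, at 40.9 against 19.1, was at least 1.12-fold higher (a log2 ratio of 1.10 with the floor at the 25th percentile of signals), so the probe sets straddled 0. Hsph1 was at 295.5 against 365.3 (−0.31), and Hspa4l at 58.1 against 95.7 (−0.72, 1.65-fold lower). Hspbp1, another nucleotide exchange factor, was at 339.2 against 428.2 (−0.34), from a probe set with such a cross-hybridisation suffix. The ratio of Hspa4l rests on signals under 100, where the background of 1.5-fold differences was 16.9%.

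J-domain proteins of the cytosol and nucleus, the activators of Hsp70, had 16 eligible probe sets with 7 above 0 and 9 below, and a median of −0.15. Dnajb6, which suppresses protein aggregation, was lower in both probe sets, at 418.1 against 602.3 (−0.53) and 962.6 against 1090.4 (−0.18). Dnajc2, a ribosome-associated factor, was likewise lower in both, at 115.1 against 170.1 (−0.56) and 236.8 against 272.5 (−0.20), the latter with a cross-hybridisation suffix. Under median scaling, the first probe set of each passed 1.5-fold. Dnajb1, the main partner of inducible Hsp70, was at 84.9 against 113.4 (−0.42). In the other direction, Dnaja2 was at 296.9 against 203.2 (0.55) and Dnajc5, the cysteine string protein of vesicle release, at 88.8 against 61.2 (0.54).

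Other cytosolic J-domain members had ratios near 0 or dim signals. Dnaja1 was at 565.6 against 532.9 (0.09), with a second probe set below the floor, and Dnajc13, which acts in endosomes, at 269.1 against 264.3 (0.03). Dnajc8, a nuclear member, was at 3129.4 against 2923.7 (0.10) in one probe set and 445.4 against 531.0 (−0.25) in another made from the same source sequence. Dnajb13 was at 113.1 against 64.6 (0.81, 1.75-fold higher), but its other probe set was at 26.1 against 47.6, below the floor in the knockout and on the lower side. Dnajb4 was at 52.5 against 40.7 (0.37), Dnajc21 at 34.8 against 39.6 (at least 1.09-fold lower) and Dnajb2 at 26.5 against 44.1 (at least 1.21-fold lower). Dnajb3, given no compartment here, had 38.6 against 30.6 and 37.8 against 10.4, barely above the floor.

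The brighter subunits of the CCT ring, which folds actin and tubulin, had ratios near 0. Cct5 was at 730.0 against 693.8 (0.07) in its brighter probe set and 44.6 against 52.3 (−0.23) in the dim one. Cct4 was at 573.2 against 572.4 (0.00). Cct3 was at 391.6 against 408.8 (−0.06), 233.0 against 204.4 (0.19) and 44.9 against 43.7 (0.04). Cct6b was dim (44.4 against 41.7), and neither Cct2 nor Cct6a exceeded the floor. Of the 7 CCT probe sets with both signals above the floor, 0 were 1.5-fold apart, against 10.2% of all such probe sets. Their ratios ran from −0.23 to 0.19. Cct8 (46.9 against 17.1) and Cct7 (38.4 against 19.2) had wild-type signals under the floor, so their folds are bounds of at least 1.29 and at least 1.05 that could not reach 1.5-fold. With the floor at the 25th percentile of signals both passed it, Cct8 at a log2 ratio of 1.46, and with no floor they were at 1.40 and 0.96. Of the 9 eligible probe sets 7 were above 0, but under median scaling 3 were.

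Cytosolic FKBP members gave ratios on both sides. Fkbp5, a cochaperone of steroid receptors that glucocorticoids induce, was at 119.3 against 161.8 (−0.44). Its relative Fkbp4 was at 305.8 against 366.1 (−0.26) and, from a second probe set of the same source sequence, at 122.3 against 80.3 (0.61, 1.52-fold higher). Both Fkbp4 probe sets have a suffix of possible cross-hybridisation. The FK506 target Fkbp1a was at 197.8 against 172.2 (0.20) and Fkbp1b at 541.8 against 416.3 (0.38). Fkbpl was at 22.2 against 43.0 (at least 1.18-fold lower). Of the small heat shock proteins, which hold unfolded chains without ATP, Hspb2 was at 108.1 against 113.8 (−0.07) and Hspb8 at 39.8 against 17.7 (at least 1.09-fold higher), and Hspb1 (21.8 and 9.0) and Hspb11 (25.2 and 12.9) were below the floor.

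In mitochondria, the 2 parts of the chaperonin differed in direction. Hspd1, the Hsp60 barrel, was at 1058.4 against 1523.4 (−0.53, 1.44-fold lower), and Hspe1, the Hsp10 lid, at 503.0 against 429.5 (0.23). Under median scaling the ratios were −0.64 and 0.11. In the RefSeq windows used here the 2 genes lie head to head on chromosome 1, with 215 bases between their first bases. The stretch between them is shown because it serves both starts, as seen from Hspe1 (chr1:55088039-55088096, plus strand), with overlapping matches to the heat shock element in capitals.
Hspd1 and Hspe1: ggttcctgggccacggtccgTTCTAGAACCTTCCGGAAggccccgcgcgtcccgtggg

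The heat shock element searched for was GAANNTTCNNGAA, on both strands, where N is any base. It occurred in 4 of 68 member genes (5.88%) and in 0.662% of all 27025 genes. The 4 were Hspd1, Hspe1, Dnajb6 and Hsph1, and the matches of Hspd1 and Hspe1 are in the same shared stretch. Their 5 eligible probe sets, 2 of them of Dnajb6, had 4 ratios below 0 and 1 above. None was 1.5-fold apart, against 12.4% of all 5894 eligible probe sets, of which 2811 were below 0. A part of this element in the ratios was not tested. The Hsph1 match lies after the start. Hspd1 and Hspe1, with 1 promoter region between them, thus had ratios on opposite sides of 0, each from 1 probe set and 1 array per genotype.

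Of the other mitochondrial members, Hspa9, the matrix Hsp70, was at 829.1 against 982.7 (−0.25) and Dnaja3, its J-domain partner, at 349.9 against 373.2 (−0.09). Fkbp8, a protein of the outer membrane, was at 868.2 against 633.1 (0.46). Dnajc15 was at 112.6 against 99.9 (0.17) and Dnajc4 at 55.1 against 60.0 (−0.12). Dnajc11, a mitochondrial membrane protein tied to cristae shape, was at 37.7 against 78.8 (−1.06, 2.09-fold lower), the widest ratio of the 67 members above the floor on both arrays, with a knockout signal just above it. Members with 1 signal below the floor have only bounds, and with the floor at the 25th percentile Fkbp11 (−2.16) and a Dnajb3 probe set (1.86) were among those wider. The 8 mitochondrial members had 5 ratios below 0 and a median of −0.11, which was −0.23 under median scaling.

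**Figure D3:**
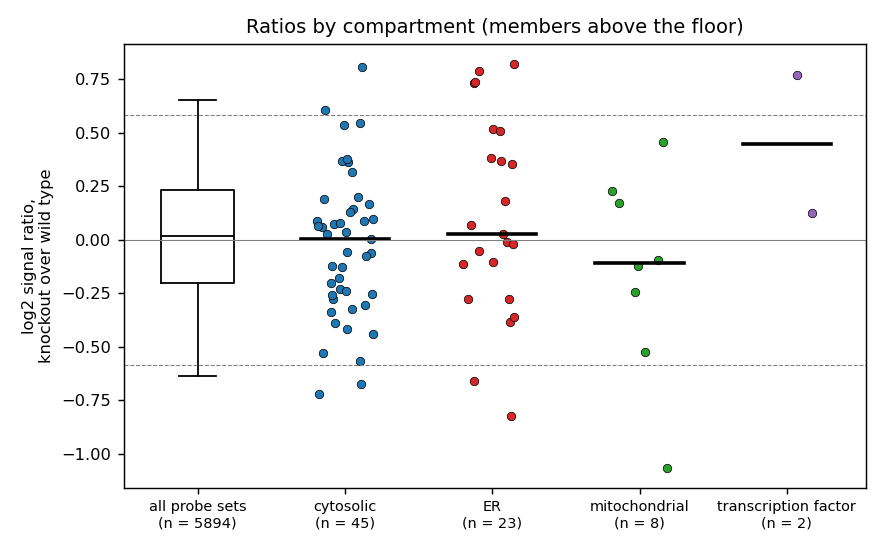
Log2 signal ratio of knockout over wild type (vertical) for the eligible members by compartment, 1 point per probe set with a bar at the median, beside a box plot of all 5894 eligible probe sets (box from the 25th to the 75th percentile, whiskers from the 5th to the 95th). Dashed lines mark 1.5-fold; the medians of the cytosolic (0.00) and ER (0.03) members nearly coincide, and more of the ER points lie beyond the dashed lines.

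Set against each other, cytosolic and ER members had nearly the same centre, and the ER ratios were more spread out at this floor. The 45 cytosolic probe sets had a median log2 ratio of 0.00 with 23 above 0 and 22 below, and the 23 ER probe sets a median of 0.03 with 12 above and 11 below. Between the 25th and the 75th percentile the ratios ran from −0.26 to 0.14 in the cytosol and from −0.19 to 0.45 in the ER. Ratios of 1.5-fold or more occurred for 4 cytosolic probe sets (8.89%), 2 in each direction, and for 6 ER ones (26.1%), 4 higher and 2 lower, against 12.4% of all probe sets. With bounds taken at their value, 30 of 45 cytosolic and 10 of 23 ER probe sets lay within 1.25-fold. The ER share was above the cytosolic one in each range of brightness, with 2 of 6 against 2 of 17 below 100, 3 of 11 against 2 of 14 from 100 to 300, and 1 of 6 against 0 of 14 above 300. With 1 probe set per gene the shares were 3 of 34 cytosolic and 4 of 16 ER genes. The gap depended on the floor: with the floor at the 25th percentile of signals the shares were 28.3% and 26.7%, and with none 24.4% and 30.4%, because dim cytosolic members then passed 1.5-fold. All probe sets had 27.3% and 19.4% at these settings, so with the lower floor both shares were near the background. With the floor at the 75th percentile the shares were 0 of 24 cytosolic and 1 of 13 ER probe sets (7.69%), against 4.65% of all. Where both signals exceeded the main floor, 3 of 36 cytosolic and 5 of 21 ER ones were 1.5-fold apart, against 10.2% of all. These counts are small, and the difference in spread was not tested. Under median scaling the medians were −0.12 for the cytosol and −0.05 for the ER.

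Where a gene had several eligible probe sets, their agreement shows how far a single ratio can be read. Of 13 such genes, 6 had all ratios on one side of 0. Sel1l, Pdia6 and Dnajb3 were above 0, and Dnajb6, Dnajc2 and Dnajc3 below. The other 7, Canx, Cct3, Cct5, Dnajb13, Dnajc8, Fkbp4 and Hspa4, had ratios on both sides. Bounds enter for Hspa4, Dnajb13 and Dnajb3. Counting a probe set only where both signals exceeded the floor, 11 genes had more than 1, and the median distance between their highest and lowest ratio was 0.35, the largest being 0.87, for Fkbp4. Of the 67 member ratios measured on both arrays, 40 were smaller in size than that median distance.

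**Figure D4:**
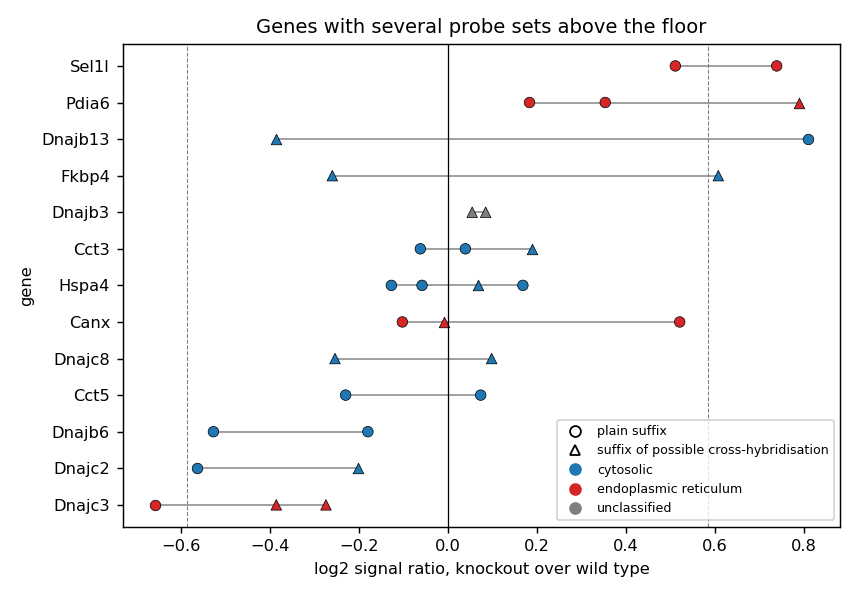
Log2 signal ratios (horizontal) of the 13 genes with more than 1 eligible probe set, 1 point per probe set (triangles: suffix of possible cross-hybridisation; dashed lines: 1.5-fold). The points of Sel1l and Pdia6 lie right of 0 and those of Dnajc3, Dnajc2 and Dnajb6 left of it, while Dnajb13 and Fkbp4 span both sides.

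Genes of the same pathways outside the naming rule were set beside the members, each by its probe set with the highest mean signal. Of 51 on the array, 45 were above the floor, with 19 ratios above 0 and 26 below and a median of −0.11. None was 1.5-fold higher and 3 were 1.5-fold lower (6.67%, against 12.4% of all probe sets). These shares are not matched in brightness, and above 300 the background was 4.74%. Vbp1, a subunit of prefoldin, which passes actin and tubulin to the CCT ring, was at 303.7 against 526.2 (−0.79). Asns, the asparagine synthetase gene induced through Atf4, was at 412.5 against 661.1 (−0.68), and Ppid, a cyclophilin cochaperone of Hsp90, at 67.7 against 104.5 (−0.63). Atf4, the factor upstream of Ddit3, was at 1365.0 against 1526.1 (−0.16), so Ddit3 and Asns, both known targets of it, lay on opposite sides. Tcp1, the remaining CCT subunit, was at 106.8 against 73.7 (0.54), and the ER stress gene Creld2 at 153.2 against 105.5 (0.54). Manf, another ER stress gene, was at 472.9 against 460.0 (0.04). Of the genes of ER-associated degradation on this list, Vcp, the ATPase that pulls proteins out of the ER, was at 869.0 against 1045.3 (−0.27) and Derl1, a membrane protein of the exit channel, at 293.9 against 319.1 (−0.12). Os9, a lectin that brings glycoproteins to the ligase, was at 120.1 against 104.3 (0.20) and Ufd1, a cofactor of Vcp, at 123.3 against 102.9 (0.26), while Derl2 (31.1 on both arrays) was below the floor. These genes of the route thus lay on both sides of 0, and none was 1.5-fold apart.

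Besides the members already given as below the floor, Dnajb5, Dnajb8, Dnajc9 and Dnajc17 had signals under it on both arrays, as did 1 of the 2 Hspb2 probe sets.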

How the data were processed

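RNA of 2 macrophage samples was hybridised to 1 array each. The deposited intensities are linear MAS5 signals that the authors computed, per the submitters' processing notes, which give no version or settings; both arrays had a 2% trimmed mean of 150.015, so they had been scaled alike. Probe sets were named through the platform's annotation table: 10298 had 1 symbol, 363 several and 1993 none, and all 77 member genes matched a reference table (GRCm38.p6), with 0 symbols changed. Here the arrays were scaled to the same 2% trimmed mean, signals were raised to the floor, and the log2 ratio was taken (Python 3.11.15, numpy 2.4.6, pandas 2.3.3; the script was tested on simulated data). Control probe sets were left out of the background. Compartments were assigned from general knowledge.

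Named were members 1.5-fold apart, the 10 with the highest mean signal, the transcription factors and the ER folding genes. The CCT ring and genes with several probe sets were named too, and the rest are given to account for every member. The members and lists were chosen with earlier results of these data known. A list's share past 1.5-fold was read against all eligible probe sets. A signal does not give a transcript level that can be set against that of another probe set. The alternatives were 2 other scalings, 3 floors, 1 probe set per gene and no cross-hybridising probe sets. The number of arrays limits the precision.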

Additional observations from a re-analysis of the deposited data

How the results depend on the processing

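The counts of members 1.5-fold apart depended on the floor, and the medians on the scaling. With the floor lowered to the 25th percentile, 15 of 95 members were higher and 11 lower, against 15.1% and 12.1% of all probe sets. With no floor and 1 unit added, 12 of 80 were higher and 9 lower, against 10.8% and 8.57%. With the floor raised to the 75th percentile, which left 43 eligible members, 1 was higher (Sel1l) and 0 lower, against 2.0% and 2.64%. Under median scaling, 8 were lower, against 9.14%, and the medians were −0.12 for cytosolic and −0.23 for mitochondrial members. A median was taken as moved when it changed by more than 0.1. Quantile normalization, 1 probe set per gene and the removal of cross-hybridising probe sets left the counts within 1.5 times (5 to 7 higher, 4 or 5 lower) and the medians within 0.1. The difference of the ER and cytosolic medians stayed between −0.02 and 0.07 under the 7 alternatives. Of the 12 members 1.5-fold apart, 0 changed sign where they remained eligible, and 11 stayed past 1.5-fold under median scaling. No paired analysis was possible because each genotype had 1 array. Dim signals limit the rest: 6 of the 12 had no signal above 100.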
